A study of Bos taurus with 20 samples.

Results

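The untreated bovine morula was described here from the 10 control arrays of the series, out of 20 arrays in all. The other 10 arrays, of embryos given the WNT antagonist dickkopf-1, were not used for the levels. Of the 26773 probe sets in the deposited table, the 18457 that carry exactly 1 gene symbol were ranked by their mean over the 10 control arrays. Where several probe sets shared a symbol, the one with the highest mean stood for the gene, which left 18010 ranked genes. The values are log2 intensities, in which a difference of 1 is a doubling of signal. Since probe sets differ in how strongly they hybridize, the ranking is one of signal and not of transcript number.

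Each array held the RNA of 1 pool of 20 morulae of Bos taurus produced in vitro. Oocytes came from ovaries collected at an abattoir. Female control embryos (5 pools) were made with X-sorted sperm and male control embryos (5 pools) with Y-sorted sperm. Both kinds of sperm came from the same bulls within a fertilization procedure. The bulls were of different breeds and were drawn at random for each procedure, and the labels do not give those of each pool. Because sorting is not complete, each pool can hold some embryos of the other sex. All embryos were cultured in SOF-BE1 medium at 38.5 °C under 5% O2 and 5% CO2, were given 5 µl of vehicle (DPBS with 0.1% BSA) on Day 5 and were harvested 24 h later, on Day 6. Pools mixed compacted and non-compacted morulae without a blastocoel, the zona pellucida was removed, and the small amounts of RNA were amplified before labeling. In such pools, fewer cells of a type and less RNA per cell cannot be told apart.

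The morula follows the activation of the embryonic genome, when maternal messengers stored in the oocyte are degraded and replaced by transcripts of the embryo. Its cells begin to adhere and polarize, and outer cells go on to form the trophectoderm, the first epithelium, while inner cells give the inner cell mass, from which epiblast and hypoblast later separate. The embryo at this stage divides rapidly and makes much of its energy in mitochondria, and glucose uptake increases towards the blastocyst.

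The array labelled male control replicate 2 stood apart from the other 9. Its median correlation with the other control arrays was 0.940, against 0.957 to 0.966 for the other arrays. It carried 5870 genes above the background threshold defined below, against 6184 to 6420 on the others. It also held 24.3% of the sum of squares about each gene's mean over all control pools, against 5.38% to 10.9%. The median of its ribosomal protein genes was 11.26, against 11.54 to 11.71, and that of tissue-restricted genes of other organs was 4.21, against 3.68 to 4.04. Its sex-linked genes also went against its label. *XIST*, the RNA that silences one X chromosome in female cells, had 8.88, 9.46, 9.28, 8.42 and 9.03 in female control pools and 7.85, 8.81, 6.30, 7.26 and 7.34 in male control pools 1 to 5. *DDX3Y*, a Y-linked RNA helicase, had 4.55, 2.65, 3.81, 5.01 and 5.43 in female control pools and 7.80, 4.82, 7.45, 8.09 and 7.75 in male control pools. The array labelled male control replicate 2 thus lay within the female range for both genes, whereas the other 4 male control pools lay outside it for both. *EIF1AY*, a Y-linked translation factor gene, had 4.87, 2.68, 2.43, 6.56 and 4.97 in female control pools and 6.90, 5.63, 6.13, 7.34 and 7.61 in male control pools, so that male control replicates 2 and 3 lay within the female range, whose highest value was that of female control replicate 4. The Y-linked *USP9Y* had 3.33 to 4.25 in female control pools and 3.97 to 4.94 in male control pools, and *SRY* had 2.54 to 3.10 in female control pools and 2.58 to 3.06 in male control pools, all under the background threshold. Counts and spreads that this array moves are given with and without it, a comparison chosen after the data had been seen.

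**Figure D1:**
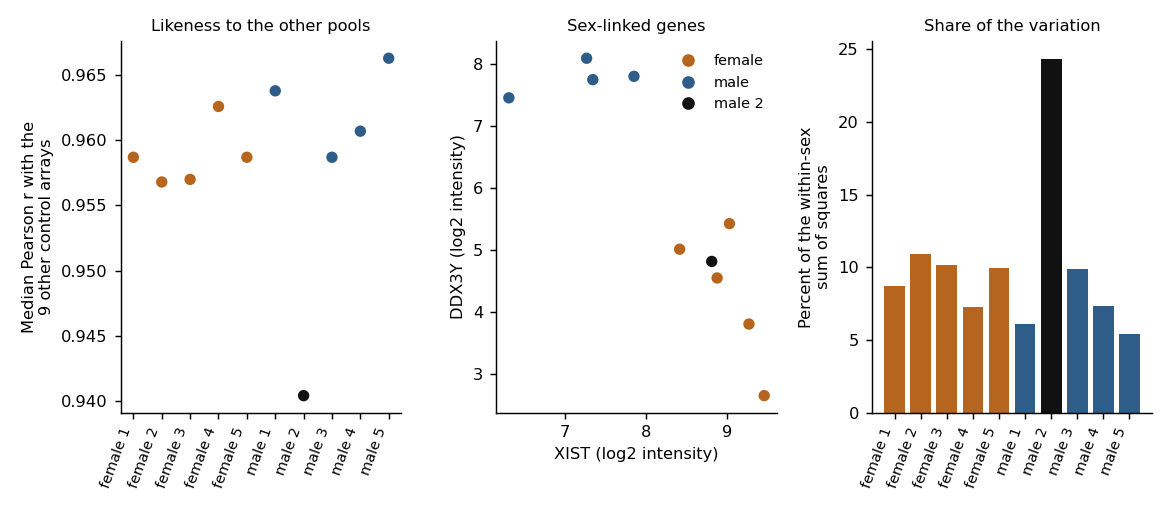
The 10 control arrays, with female arrays before male arrays on the axes of the outer plots. Left, median Pearson correlation of each array with the other 9. Middle, XIST against DDX3Y (log2 intensity). Right, each array's percent of the sum of squares about each gene's mean over the 10 pools, which the axis names within-sex. The array labelled male control replicate 2 (black) has the lowest correlation, 0.940, and the largest share, 24.3%, and lies among the female arrays in the middle plot.

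Background was set by 104 genes with expression restricted to organs that a morula lacks, such as lens crystallins, milk caseins and photoreceptor genes. The 95th percentile of their means, 5.97, was taken as the threshold. The study used another criterion, based on negative control probes, which was not applied here, so a gene called at background here can count as expressed there. By this measure of tissue-restricted genes 6234 of the 18010 genes (34.6%) were above background. The 901 highest genes (5.00%) had means between 9.26 and 13.23, with a median of 10. Another 5333 genes (29.6%) were intermediate, with a median of 7.29, and 11776 (65.4%) were at background. The levels ran on continuously across both borders, from *RWDD3* at 5.98 to *CGGBP1* at 5.97 at the lower border and from *YTHDF3* to *PNN*, both 9.26, at the upper one. In single pools, 4586 genes were above the threshold in all 10, 9885 in none and 3539 in 1 to 9. With a threshold taken from 701 olfactory receptor genes (4.63), of which 5 lay above the one used, 10086 genes would be above background, so the number of expressed genes depends on the choice of background whereas the order of genes does not.

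**Figure D2:**
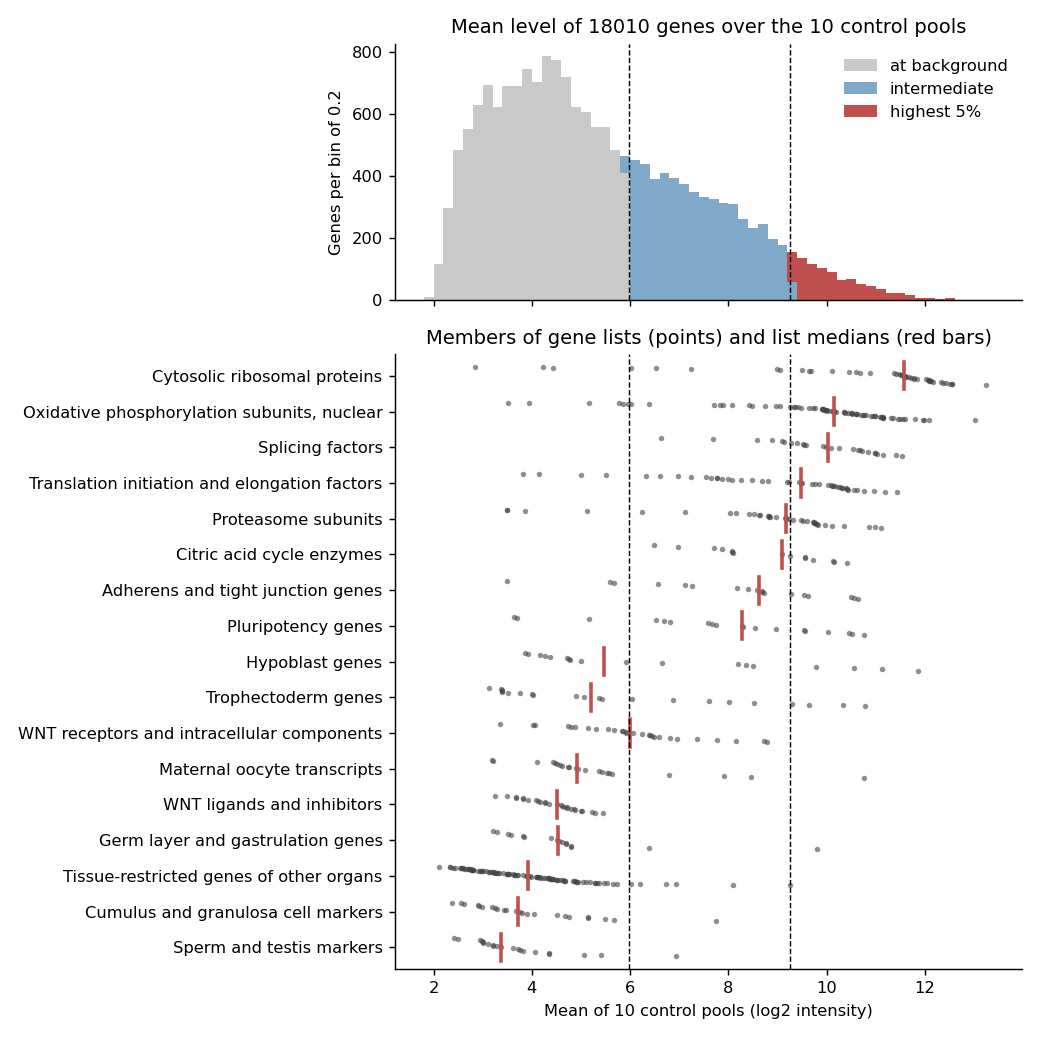
Top, number of genes by mean log2 intensity over the 10 control pools, in bins of 0.2, for genes at background, intermediate genes and the highest 5%; dashed lines mark the limits at 5.97 and 9.26. Bottom, means of the members of 17 gene lists (points) with each list's median (red bar); ribosomal proteins center on 11.58 and WNT ligands and inhibitors on 4.52.

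The top of the ranking was held by the translation machinery. Of the 20 highest genes 14 encode cytosolic ribosomal proteins and 3 encode subunits of the respiratory chain or ATP synthase. *RPS28*, a protein of the small ribosomal subunit, ranked first, with 13.18 in the lowest pool, a median of 13.22 and 13.33 in the highest pool. *ATP5MG*, a subunit of mitochondrial ATP synthase, was second with 12.91, 13.01 and 13.11. *RPL37A*, of the large ribosomal subunit, followed with 12.18, 12.58 and 12.68, and its lowest pool was male control replicate 2. *RPS29* (mean 12.54), *RPS25* (12.50), *RPS16* (12.43), *RPLP2* (12.36), *RPL23* (12.32), *RPL11* (12.16), *RPL32* (12.13), *RPL13A* (12.10), *RPS21* (12.09), *RPS3* (12.07), *RPS12* (12.06) and *RPL18* (12.03) were the other ribosomal genes of the group. The remaining members were *COX7A2* (12.07) of cytochrome oxidase, *UQCR10* (11.98) of respiratory complex III, *GCSH* (12.40), which carries the aminomethyl group in glycine cleavage, the cytoskeletal actin *ACTB* (12.32) and the splicing regulator *SRSF9* (12.23). *RPS28* and *ATP5MG* were set off from each other and from *RPL37A* by more than the SD between pools, whereas from *RPL37A* on no neighbours in the order differed by more than the larger of their SDs. Without male control replicate 2 a further step, between *RPL23* and *SRSF9*, exceeded it. The spread of several of these genes came from 1 array: the SD of *RPLP2* was 0.38 over all pools and 0.071 without male control replicate 2.

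Translation genes as a whole lay high. Among cytosolic ribosomal proteins, 37 of 45 were in the highest class, 5 were intermediate and 3 were at background, against 5.00%, 29.6% and 65.4% of all genes. The 3 at background were *RPL10L* (2.84) and *RPL3L* (4.22), tissue-restricted paralogs, and *RPS14* (4.44), a core ribosomal protein. *RPS14* ranged between 2.94 and 6.91 over the pools, with a within-sex SD of 1.27. Ribosomal genes have many processed copies in mammalian genomes, and probes may be shared with them, so single values are uncertain. Of the initiation and elongation factors 25 of 46 were in the highest class, led by *EEF1B2* (11.43), *EIF1AX* (11.18) and *EIF4A1* (10.96). Aminoacyl-tRNA synthetases, which charge tRNAs, were above background in 16 of 17 cases but mostly intermediate, with *KARS1* (10.05) on top and *VARS1* (5.74) lowest. Mitochondrial ribosomal proteins were above background in 74 of 75 cases, with a median of 8.89, against 11.58 for their cytosolic counterparts.

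Nuclear genes of oxidative phosphorylation were the other large group at the top, with 57 of 75 in the highest class and a list median of 10.15. Beside those named, *COX6A1* (11.95), *COX8A* (11.79), *ATP5ME* (11.59) and *NDUFA4* (11.54) led the list. The members at background included the muscle isoforms *COX7A1* (5.16) and *COX8B* (3.95), and *NDUFA4L2* (3.51), a paralog of *NDUFA4* that is induced by hypoxia in other tissues. The 15 citric acid cycle enzymes were all above background, from *OGDH* (6.49), a subunit of 2-oxoglutarate dehydrogenase, up to *CS* (10.41), citrate synthase. *CS* had 9.53 in its lowest pool, a median of 10.48 and 10.70 in its highest, and the lowest pool was again male control replicate 2.

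Glycolysis was less uniform. *GAPDH* (10.98), *GPI* (10.55) and *ALDOA* (10) were in the highest class, 6 enzymes were intermediate and 5 of the 14 were at background. The probe sets of all 3 phosphofructokinase genes, which encode the enzyme that commits sugar to glycolysis, were at background (*PFKL* 5.78, *PFKP* 4.54 and *PFKM* 4.15), as was that of lactate dehydrogenase A (*LDHA*, 4.32). *LDHA* had 3.55 in its lowest pool, a median of 4.16 and 5.63 in its highest, so that no pool reached the threshold. Among 10 hexose transporters, *SLC2A3*, a high-affinity glucose transporter, had 10.19, 10.68 and 11.03 (lowest, median and highest pool). The fructose transporter *SLC2A5* had 9.69, 10.10 and 10.43, and *SLC2A1*, the widely expressed glucose transporter, averaged 8.28. *SLC2A8* lay near the threshold (6.11) and the other 6 were at background, among them *SLC2A2* (3.13) of liver and *SLC2A4* (4.49) of muscle and fat.

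Splicing factors were mostly in the highest class, and genes of protein turnover spread over all 3 classes. Among all genes 5.00% were in the highest class, 29.6% were intermediate and 65.4% were at background. All 26 splicing factors were above background and 20 of them in the highest class, with *SNRPD3* (11.53) and *SNRPE* (11.14), core proteins of spliceosomal particles, and *HNRNPA1* (11.40) on top. Of 38 proteasome subunits 17 were in the highest class, 17 were intermediate and 4 were at background. *PSMA7* (11.11), *PSMA6* (10.97) and *PSMB4* (10.86) of the constitutive core led, whereas the immunoproteasome subunits *PSMB8* (3.49) and *PSMB10* (5.12), the thymus subunit *PSMB11* (3.87) and the testis subunit *PSMA8* (3.49) were at background and *PSMB9* (6.25) was close to the threshold. Among 69 heat shock proteins and chaperonin subunits, 14 were in the highest class, 29 were intermediate and 26 were at background. The constitutive chaperone *HSPA8* (11.94) and the mitochondrial chaperones *HSPE1* (11.53) and *HSPA9* (11.25) were high, and the stress-inducible *HSPA6* (3.58) was at background.

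The lists of function examined here held 256 of the 901 highest genes (28.4%), and the other genes of that class were not assigned to a function. Of the 100 highest genes, 31 were in a translation list and 13 in an energy list. Few long non-coding RNAs were ranked. None was in the highest class, 10 were intermediate and 27 were at background, against 5.00%, 29.6% and 65.4% of all genes. Of the 2 microRNA genes in the highest class, *MIR2404-2* averaged 11.60 and *MIR371* 9.52. Probe sets of a microRNA gene on this array can also detect the transcript in which it lies, so these values are not levels of a mature microRNA.

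Cell division and chromatin genes were mostly intermediate to high. Of 31 cyclins, cyclin-dependent kinases and replication genes 29 were above background (93.5%, against 34.6% of all genes). The mitotic kinase *AURKA* (10.50), the ribonucleotide reductase subunit *RRM2* (10.48) and cyclin B1 (*CCNB1*, 10.24) were on top. *CCND2* averaged 8.85 and *CCND3* 6.62, against 4.59 for *CCND1*, so that the 3 D-type cyclins covered the whole range from the upper intermediate class to background. Histone genes spread from *H2AC13* (11.95) and *H3-3A* (11.64) to *H2BL1* (2.26), with 24 of 39 above background. Core histone messengers belong to large families of near-identical copies and their probe sets are uncertain for the same reason as those of ribosomal genes. Among genes that write or remove DNA methylation, *TET1* (9.13), an oxidase of 5-methylcytosine, and the de novo methyltransferases *DNMT3B* (8.31) and *DNMT3A* (7.14) were above background. The maintenance methyltransferase *DNMT1* averaged 6.69, and *UHRF1* (5.89), *TET2* (5.42), *TET3* (4.47) and *DNMT3L* (3.64) were at background. Polycomb and trithorax genes were above background in 16 of 18 cases, and *EZH2* (8.30), the methyltransferase of polycomb complex 2, lay above its paralog *EZH1* (4.71).

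Genes of pluripotency were mostly intermediate or high. Of 19 pluripotency genes 16 were above background (84.2%, against 34.6% of all genes), 10 of them intermediate and 6 in the highest class. *DPPA3*, a maternal factor that protects DNA methylation, had 10.60, 10.76 and 10.86 (lowest, median and highest pool). *ZFP42*, a zinc finger protein of embryonic stem cells, had 9.93, 10.56 and 10.81. *POU5F1*, the POU factor that is required for the inner cell mass, had 10.19, 10.47 and 10.66. The range of *DPPA3* (0.26) and *POU5F1* (0.48) was narrower than the median range of the highest class, 0.71, and that of *ZFP42* (0.88) was wider. *SOX2*, its partner in binding DNA, had 8.92, 9.56 and 10.32, with the highest value in male control replicate 2. *NANOG*, a homeodomain factor of the epiblast, lay much lower, with 5.67, 6.55 and 7.99, and 7 of 10 pools were above the threshold. *FGF4*, the growth factor of epiblast precursors in the mouse, was at background on average (5.16) and ranged between 3.52 and 7.61, with 2 pools above the threshold.

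Hypoblast genes ran from the highest class to background. *GATA6*, a factor of the hypoblast, had 10.19, 10.55 and 10.87 in its lowest, median and highest pool. *SPARC*, a matrix protein of early endoderm, had 10.81, 11.13 and 11.37, and the lysosomal protease *CTSV* had 11.71, 11.86 and 12.03. The receptor *PDGFRA* (8.36) and the laminin chain *LAMB1* (8.19) were intermediate. In contrast, *SOX17* (4.16), *GATA4* (3.86), *FOXA2* (4.26), *SOX7* (3.93) and *HNF4A* (4.77), transcription factors of later endoderm, were at background in every pool, and so were the receptors *FGFR1* (4.37) and *FGFR2* (4.71). In all, 8 of 18 hypoblast genes were above background (44.4%, against 34.6% of all genes).

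Trophectoderm genes also ran from the highest class to background, with 9 of 22 above background (40.9%, against 34.6% of all genes). Keratins *KRT8* (10.79) and *KRT18* (10.32), which build the first epithelial filaments, and the transcription factors *TFAP2C* (9.63) and *MSX2* (9.29) were in the highest class. *TEAD4*, the DNA-binding partner of YAP1, had 7.85, 8.56 and 9.01 in its lowest, median and highest pool. *GATA3*, a factor of trophoblast, had 7.01, 8.01 and 8.76. *CDX2*, the caudal homeobox factor of trophectoderm, had 5.88, 7.86 and 8.65, and 9 of 10 pools were above the threshold. The spread of *CDX2* between pools was wide, with an SD of 0.89 within sex. *ELF5* (3.40) and *EOMES* (3.39), regulators of trophoblast in the mouse, *HAND1* (5.05), the pregnancy-associated glycoproteins *PAG1* (4.02), *PAG2* (3.52) and *PAG11* (3.37), and the placental hormone *CSH2* (3.12) were at background. Interferon tau, the signal of the ruminant trophectoderm to the mother, averaged 5.37 and was above the threshold in 2 pools.

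Genes of the germ layers were at background in 14 of 16 cases, against 65.4% of all genes, with *OTX2* and *GSC* as the exceptions. *OTX2*, a homeobox gene of anterior development, was in the highest class with 9.51, 9.77 and 10.09. *GSC*, the organizer gene goosecoid, was intermediate with 6.03, 6.44 and 6.71 and lay above the threshold in all 10 pools. Mesoderm and neural genes such as *TBXT* (4.69), *MIXL1* (3.29), *PAX6* (3.21) and *SOX1* (4.69) were at background.

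**Figure D3:**
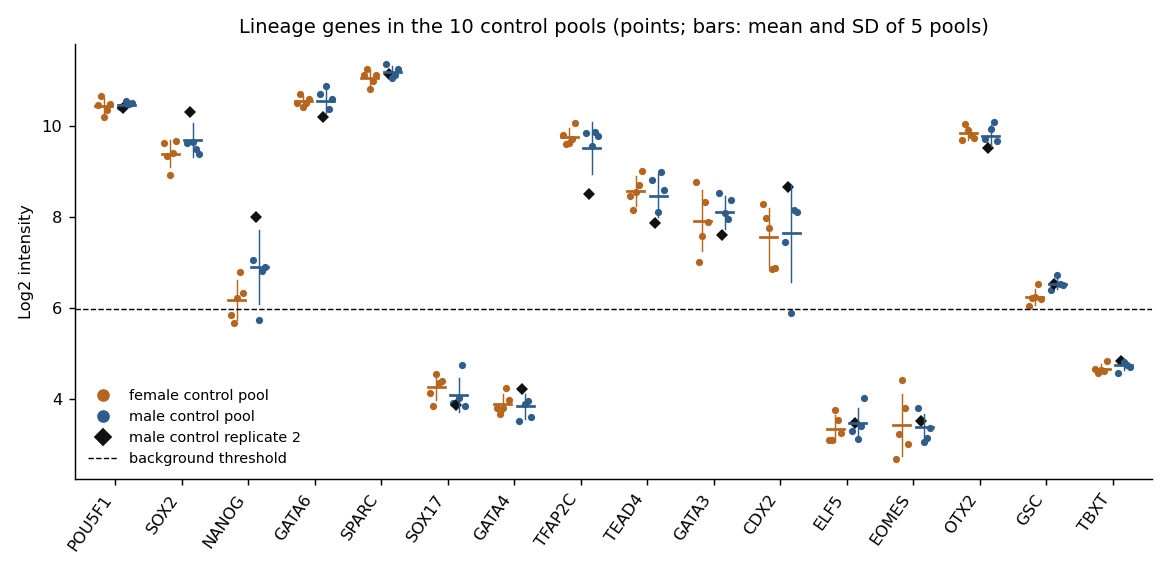
Log2 intensity of 16 lineage genes in each female control pool (left of each pair) and male control pool (right), with mean and SD of the 5 pools of each sex; diamonds mark male control replicate 2 and the dashed line the background threshold of 5.97. POU5F1, GATA6, SPARC and OTX2 lie high and close together in all pools, CDX2 and NANOG vary between pools, and SOX17, GATA4, ELF5, EOMES and TBXT lie under the threshold in all pools.

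Genes of cell junctions and polarity were mostly above background. Of 18 genes of adherens and tight junctions 15 were above background (83.3%, against 34.6% of all genes). *CDH1*, encoding the E-cadherin that holds blastomeres together, had 10.28, 10.67 and 10.80 (lowest, median and highest pool). *F11R* (10.56) and *CLDN6* (10.50), membrane proteins of tight junctions, were equally high, and the adaptor *TJP1* (8.67) and occludin (*OCLN*, 8.57) were intermediate. *CLDN1* (3.50) and the adaptor *CGN* (5.60) were at background. Of 17 polarity genes 12 were above background (70.6%), with the small GTPase *CDC42* (10.59), ezrin (*EZR*, 10.17) and the atypical protein kinase *PRKCI* (9.45) at the top. Genes of the basolateral domain, *SCRIB* (4.96), *LLGL1* (5.92) and *LLGL2* (5.26), were at background. For cavitation, *ATP1B3* (9.54), a subunit of the sodium pump, and the aquaporin *AQP3* (9.47) were in the highest class, 3 more of the 11 pump and aquaporin genes were intermediate, and *AQP9* (2.95) was among the 6 at background (45.5% above, against 34.6% of all genes). Of 16 keratins and desmosome genes 7 were above background (43.8%), with *DSG2* (8.66), a desmosomal cadherin, and *KRT5* (8.60) next to the keratins named above, and the mesenchymal filament gene *VIM* (3.95) was at background.

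The Hippo pathway, which reads cell position in the morula, had 14 of 19 genes above background (73.7%, against 34.6% of all genes). The coactivator *WWTR1* (9.76) was in the highest class. Its paralog *YAP1* had 8.21, 8.53 and 8.83 in the lowest, median and highest pool and differed little between pools (SD 0.20). The kinase *LATS1* averaged 7.38, whereas *LATS2* averaged 5.36 and was under the threshold in all 10 pools. The scaffold *AMOT* averaged 6.85, and its relatives *AMOTL2* (5.79) and *AMOTL1* (4.84) were at background.

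In the WNT pathway, ligands lay lower than the components that receive and transmit them. None of the 27 genes for WNT ligands and secreted inhibitors had a mean above background, against 34.6% of all genes, and the highest was *WNT6* at 5.45. Under the olfactory receptor threshold 11 of them would be above it. *DKK1* itself averaged 4.86, with 6.09, 5.77, 4.98, 5.08 and 6.00 in female control pools and 4.06, 4.33, 4.12, 4.25 and 3.94 in male control pools. Of these values, 8 of 10 lay under the threshold. In a limma fit of all 26773 probe sets, which includes *DKK1*, none passed an adjusted p of 0.05 for sex, and 1108 had an unadjusted p under 0.05. Of the receptors and intracellular components 14 of 28 were above background (50.0%). *GSK3B* (8.79), the kinase of the destruction complex, its target β-catenin (*CTNNB1*, 8.72) and *GSK3A* (8.16) led, followed by *PORCN* (7.77) and *WLS* (6.40), which acylate and carry WNT proteins for secretion. *FZD10* (6.95) was the highest of the frizzled receptors and varied between 4.76 and 8.27. The co-receptor *LRP6* averaged 6.39 and *LRP5* 4.06.

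Receptors for other signals that reach the embryo were intermediate or at background, with 14 of 23 above the threshold (60.9%, against 34.6% of all genes). None was in the highest class, which held 5.00% of all genes. *IL6R* (8.79) and its signal transducer *IL6ST* (8.27), *TGFBR1* (8.11), *ACVR2A* (7.83) and *FGFR4* (7.61) were among the highest. *INSR* (4.41), the insulin receptor, and *IFNAR2* (2.80), a chain of the interferon receptor, were at background. Just 7 of the 23 were above the threshold in each of the 10 pools.

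Transcripts of the oocyte were mostly at background. Of 22 maternal genes 4 were above background (18.2%, against 34.6% of all genes), the *DPPA3* described above among them. *BTG4*, an adaptor for the removal of maternal messengers, had 7.27, 8.33 and 9.86 in its lowest, median and highest pool. *BMP15*, a growth factor of the oocyte, had 6.46, 7.90 and 9.74. The zona protein gene *ZP2* had 6.15, 6.66 and 8.02. Female control replicate 3 was the highest pool for *BTG4* and *BMP15*, and its median over the 22 genes was 5.98, against 4.66 to 5.27 in the other 9. *GDF9* (5.42), *ZAR1* (4.48), *NLRP5* (4.52) and *ZP4* (4.76) were at background on average. With the threshold at the 90th percentile, 9 of the 22 would be above it.

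Stress and survival genes were represented by a part of each family. The share above background was 66.7% for antioxidant genes, 84.2% for the endoplasmic reticulum and 56.0% for apoptosis regulators. It was 7.14% for interferon-stimulated genes and 21.1% for imprinted genes, against 34.6% of all genes. Peroxiredoxins and thioredoxin (*PRDX2* 11.26, *TXN* 10.86 and *PRDX1* 10.33) led 21 antioxidant genes, of which 14 were above background, and *GPX3* (3.83), *SOD3* (4.38) and *GPX8* (2.57) were at background. In the endoplasmic reticulum 16 of 19 genes were above background, with the lectin chaperone *CANX* (10.73) and the stress factor *ATF4* (10.53) on top. Among 25 apoptosis regulators, *BIRC5* (9.29), *FADD* (9.21), *BAD* (8.51) and *MCL1* (8.09) were high, while *BCL2* (4.52), *CASP8* (3.36) and *FAS* (3.64) were at background. Of 14 interferon-stimulated genes *STAT2* (6.56) alone was above background, and *MX1* (3.07) and *ISG15* (3.82) were not. Of 19 imprinted genes 4 were above background, namely *GNAS* (8.90), *XIST*, *PLAGL1* (6.19) and *NDN* (6.10), while *IGF2* (5.28) and *H19* (3.24) were not.

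Markers of other cells that could have come with the embryos were mostly at background. The share above it was 4.17% for cumulus and granulosa cells, 4.76% for sperm and testis and 21.4% for blood, against 34.6% of all genes. Of 24 genes of cumulus and granulosa cells 1 was above background, *PTGS2* (7.75), an enzyme of prostaglandin synthesis that is not restricted to those cells. The defining markers *FSHR* (2.93), *LHCGR* (2.90), *TNFAIP6* (2.38), *PTX3* (3.18), *CYP11A1* (3.25) and *INHA* (3.80) were at background, and the list median lay between 3.50 and 3.99 over the pools. Of 21 sperm and testis genes, *TNP2* (6.94) was above background and *PRM1* (5.06), *ODF1* (2.51) and *AKAP4* (3.00) were not. Of 14 blood genes 3 were above background, of which *HBA* was the highest. *HBA*, α-globin, had 8.56, 9.32 and 9.67 in its lowest, median and highest pool, whereas *HBB*, β-globin, averaged 3.71 and the leukocyte gene *PTPRC* 2.70. *HBA* and the cardiac troponin *TNNI3* (8.09) were also the highest of the 104 tissue-restricted genes, whose median was 3.92, and both were above the threshold in all 10 pools.

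The spread between pools depended on level. The SD within sex was pooled over the sexes for each gene. Its median was 0.22 in the highest class, 0.39 in the intermediate class and 0.28 at background. Binned by level, the median SD climbed to a peak of 0.44 among genes with means between 6 and 7 and came down to 0.13 among those between 11 and 12. Over the 6234 genes above background it was 0.36. In that class 748 genes had an SD under 0.2, 61 had an SD over 1, and 749 (12%) had pools that differed by more than 2 log2 units. Male control replicate 2 was the most extreme pool for 49.9% of the highest genes and 31.4% of the intermediate ones. Without it the median SD was 0.17 in the highest class and 0.34 in the intermediate class. RNA was amplified from small amounts, and the part of amplification in this spread was not tested.

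**Figure D4:**
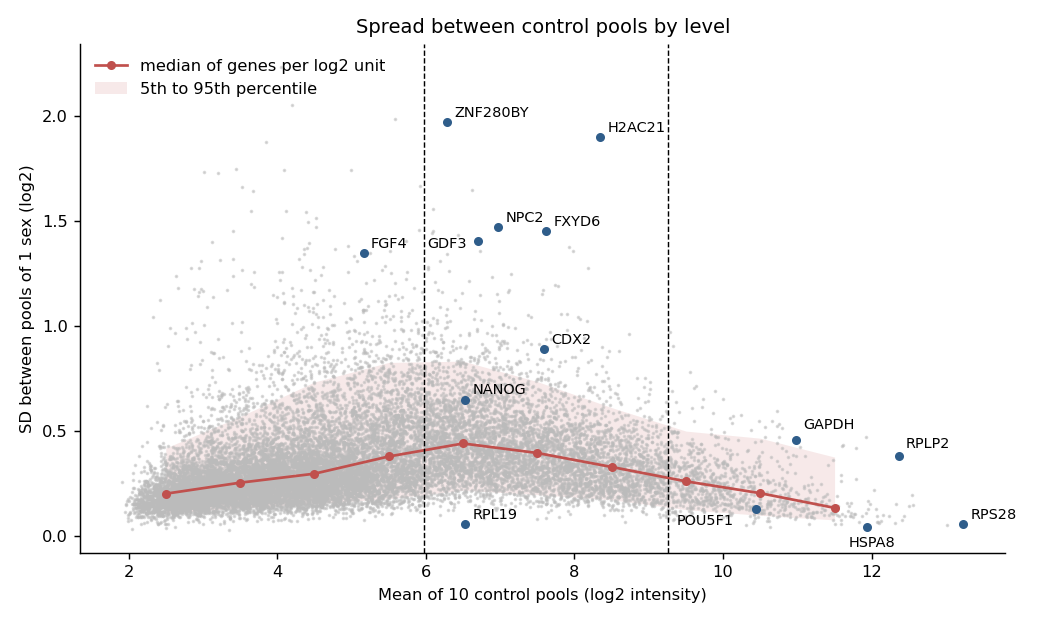
SD between pools of 1 sex (log2, pooled over both sexes) against mean level over the 10 control pools for 18010 genes (gray), with the median per log2 unit (red line, units with at least 20 genes) and the 5th to 95th percentile (band); dashed lines mark 5.97 and 9.26. The median is highest, 0.44, between 6 and 7, and HSPA8 and RPS28 lie at the bottom while ZNF280BY and H2AC21 lie near 1.9 or above.

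The most stable genes above background were housekeeping genes of high level. *HSPA8* had the lowest SD, 0.042, with values between 11.85 and 11.99. The splicing proteins *SRSF5* (0.043) and *RBM39* (0.050), *ATP5MG* (0.052), *RPS28* (0.055), *RPL19* (0.057), the 14-3-3 protein *YWHAE* (0.058), the nucleosome-binding *HMGN2* (0.059), the ubiquitin-conjugating enzyme *UBE2D3* (0.059) and *RPL13A* (0.061) followed. This order depends on male control replicate 2. Without it *HSPA8* (0.030) was still lowest, but *RPS25* (0.032, against 0.14 with all pools), the translation factor *EIF4A1* (0.038, against 0.081) and *ACTB* (0.043, against 0.15) came next, and 4 of the 10 lowest were shared between the 2 orders. *RPL19* was unlike the rest in its level, since it averaged 6.53 and lay between 6.43 and 6.60 in every pool.

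The most variable genes above background were of intermediate level and were high in some pools and at background in others. *ZNF280BY*, a zinc finger gene that the cattle annotation places on the Y chromosome, had the largest SD, 1.97. Its values were 7.74, 2.80, 3.42, 6.13 and 7.44 in female control pools and 7.0, 4.41, 7.20, 8.20 and 8.45 in male control pools, so that the 2 sexes overlapped. *H2AC21*, a histone H2A gene, had an SD of 1.90, with 9.19, 4.29, 10.04, 8.03 and 9.16 in female control pools and 9.69, 6.06, 8.84, 9.36 and 8.82 in male control pools. Female control replicate 2 and male control replicate 2 were the low ones. *NPC2*, a carrier of cholesterol out of lysosomes (SD 1.47), had 4.61, 8.82, 7.92, 6.11 and 6.72 in female control pools and 7.84, 4.79, 7.54, 7.76 and 7.60 in male control pools. *FXYD6*, a regulator of the sodium pump (SD 1.45), had 8.80, 5.32, 8.89, 7.02 and 5.52 in female control pools and 8.72, 9.33, 6.53, 8.63 and 7.44 in male control pools. *GDF3*, a growth factor of the TGFβ family (SD 1.41), had 9.05, 7.53, 8.08, 7.49 and 4.79 in female control pools and 6.82, 6.88, 5.21, 4.27 and 6.84 in male control pools. Over the 10 most variable genes, female control replicate 2 and male control replicate 4 were each the lowest pool for 3, female control replicate 5 for 2, and female control replicate 1 and male control replicate 2 for 1 each. Among the male pools, male control replicate 2 was the lowest for 4 of the 10. The other genes among the 10 most variable were *MIR2456* (1.65), *MIR2424* (1.56), the ubiquitin-conjugating enzyme *UBE2D4* (1.45), *LYNX1* (1.44), a modulator of acetylcholine receptors, and *MLN* (1.43), which encodes motilin. Of the 61 genes with an SD over 1, 56 had a mean under 8, a level above the median of all intermediate genes, 7.29. Most genes above background also had a mean under 8, among them 2092 with means between 6 and 7 and 1697 between 7 and 8. MicroRNA genes were 7 of the 61, against 48 of the 5333 intermediate genes and 2 of the 901 highest. Without male control replicate 2 the number with an SD over 1 was 46, the SD of *ZNF280BY* was 1.79, that of *H2AC21* 1.74 and that of *NPC2* 1.23, and 8 of the 10 most variable genes were the same.

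**Figure D5:**
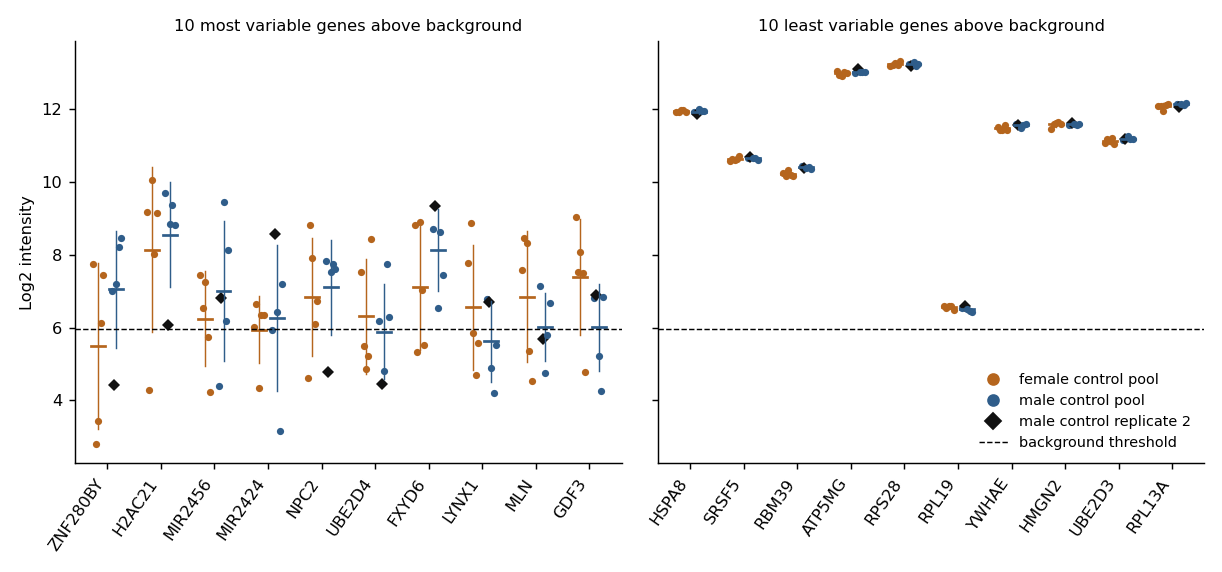
Log2 intensity in each female control pool (left of each pair) and male control pool (right) of the 10 genes with the highest SD within sex (left plot) and the 10 with the lowest (right plot) among genes above background, with mean and SD of the 5 pools of each sex; diamonds mark male control replicate 2. The variable genes cross the threshold of 5.97 between pools, and the stable genes other than RPL19 lie above 10.

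Functions differed in how far their genes varied, along with their level. The median SD was 0.17 for splicing factors, 0.19 for cytosolic ribosomal proteins, 0.27 for oxidative phosphorylation, 0.40 for the citric acid cycle and 0.46 for histones. It was 0.33 for pluripotency genes, 0.29 for hypoblast genes, 0.41 for trophectoderm genes and 0.53 for oocyte transcripts, against 0.30 for all genes. Without male control replicate 2 these medians were 0.12 for splicing factors, 0.11 for cytosolic ribosomal proteins, 0.20 for oxidative phosphorylation, 0.25 for the citric acid cycle and 0.47 for histones. They were then 0.24 for pluripotency genes, 0.24 for hypoblast genes, 0.33 for trophectoderm genes and 0.55 for oocyte transcripts, against 0.27 for all genes. The 14 genes often used as references in quantitative PCR were all above background, with a median SD of 0.36 (0.23 without male control replicate 2). *H2AZ1* (0.13), *ACTB* (0.15), *HPRT1* (0.17), *PPIA* (0.17) and *YWHAZ* (0.18) were the most stable of them. *GAPDH*, one of 3 genes that the study used as references, had an SD of 0.46 and values between 10.23 and 11.60, and *SDHA*, another of them, had an SD of 0.30. For *ACTB* most of the spread came from 1 array, since its SD was 0.043 without male control replicate 2.

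Of the 12 genes that the study followed up by quantitative PCR, picked there on these and the treated samples, 9 were above background on average but just 3 in every pool, namely *XIST*, *SMAD3* (7.20) and *PRDM4* (6.76). *TUBB2B*, a β-tubulin, was the most variable of them (SD 1.36). It had 7.32, 8.12, 6.20, 8.90 and 9.24 in female control pools and 9.0, 5.94, 9.56, 8.43 and 7.10 in male control pools. *APOA1* (5.10), *RPP38* (5.56) and *DDX3Y* (5.74) were at background on average. Of 18 genes of blastocyst differentiation on the study's list, 12 were above background, and *ETS2* (4.89) was, with *LATS2*, *FGF4*, *FGFR2*, *ELF5* and *EOMES* described above, at background. By its own criterion the study counted *FGF4* and *FGFR2* as expressed and *ELF5* and *EOMES* as not expressed. It also gave values for *ETS2* and *LATS2*. The study treated *TFAP2C* and *YAP1* as not on the array, whereas the platform annotation used here gives each of them a probe set; without these genes 10 of 16 were above background.

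Female and male control pools had most of their highest genes in common, with 18 of the 20, 91 of the 100 and 839 of the 901 highest genes shared. Without male control replicate 2 these numbers were 19, 93 and 844. The sex of the pool was tested for the 8227 probe sets with a mean above the threshold, with limma and Benjamini-Hochberg adjustment. No probe set (0.0%) passed an adjusted p of 0.05, and 430 (5.23%) had an unadjusted p under 0.05, 231 higher and 199 lower in female pools. The linear model without moderation also gave 0, with 427 at the unadjusted level. The probe sets with the smallest p in each direction are given as values. *PORCN*, an X-linked gene for the acyltransferase of WNT proteins, had 8.54, 8.53, 8.15, 8.16 and 7.81 in female control pools and 7.69, 7.39, 6.84, 7.02 and 7.54 in male control pools (difference 0.94 ± 0.21, SE, limma adjusted p = 0.915). *ARID4A*, encoding a chromatin protein that binds RB1, had 6.09, 6.31, 6.09, 6.09 and 5.69 in female control pools and 7.05, 7.14, 6.69, 7.02 and 6.81 in male control pools (difference -0.89 ± 0.15, SE, limma adjusted p = 0.915). Both genes were picked as the smallest p in their direction among 8227 tests, so the separation of their values is no further evidence. *LOC282340*, *CFAP298*, *FAM50A* and *CSTF2* were the others with the smallest p among those higher in female pools, by 0.75 to 1.15. *CCDC18*, *FAT1*, *PPTC7* and *GBF1* were those lower in female pools, by 0.80 to 0.95. Like *PORCN*, *FAM50A* and *CSTF2* lie on the X chromosome, whereas *LOC282340*, *CFAP298* and the genes named as lower in female pools lie on autosomes. Other X-linked genes higher in female pools, such as *XIST*, *IL2RG* and *ZDHHC9*, also had small unadjusted p values in this limma fit. The X-linked share of the probe sets was not counted. Without male control replicate 2, again no probe set passed, and 512 had an unadjusted p under 0.05, 205 higher and 307 lower. These p values measure only the spread between these pools, which may in part be technical. The absence of passing probe sets does not show that the sexes are alike. *XIST*, whose values are given above, had a limma adjusted p of 0.915. *DDX3Y* was left out of the 8227 by its mean under the threshold, and did not pass in the fit without that filter. With treated pools included, the study reported genes that differed by sex. Its quantitative PCR of separate pools also found *XIST* and *DDX3Y* to differ by sex.

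By the cattle assembly ARS-UCD2.0, the share of genes above background was 31.0% of 652 on the X chromosome and ran from 24.7% on chromosome 15 to 40.2% on chromosome 20 among the autosomes. Chromosome 15 held 790 of the ranked genes with a median level of 4.06, against 4.96 over all genes. Genes of the highest class were short, with a median span of 12.4 kb, against 26.1 kb for intermediate genes and 16.9 kb for those at background.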

How the data were processed

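The array was the Bovine Gene 1.0 ST of Affymetrix, hybridized with amplified cDNA. Using Affymetrix Expression Console, the authors corrected background, normalized by quantiles and summarized probes by RMA, and deposited 1 log2 intensity per probe set and array. Versions are not given in the sources used here. The number of arrays limits the precision. No array was left out and no further normalization was applied. Sex and treatment came from the labels. The platform annotation gives 1 symbol to 18457 probe sets, several to 688 and none to 7628, and symbols were updated by gene identifier in the RefSeq table of ARS-UCD2.0, where 461 of the 18457 were not found. For 401 genes with over 1 probe set the highest mean was used, and for 82 of them the probe sets lie on both sides of the threshold.

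Means, SD and counts were computed in Python 3.11.15 with NumPy 2.4.6 and pandas 2.3.3, and plots with matplotlib 3.10.9. The SD is within sex, pooled over both sexes. Female minus male was fitted in R 4.3.3 with limma 3.58.1 (lmFit and eBayes, two-sided, no replicate term, as in the model of the study) and tested on simulated data. Pools with the same replicate number were not treated as pairs, and the labels do not say whether the number marks a shared procedure. Of 42 gene lists, 36 of them functional, 664 of 767 listed symbols were found, and the rest were not analysed here. Lists are described by counts and medians with no test.

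Genes were named as the 20 highest, the 10 most and 10 least variable above background, the 5 smallest p in each direction for sex, the highest, lowest and median members of each list, the genes examined in the study, and other list members as examples. *CGGBP1*, *PNN*, *RWDD3* and *YTHDF3* mark the class limits. The samples, lists and rules were chosen with earlier results of these data known, and 3 lists were corrected by gene name after levels had been seen. Alternatives were other thresholds, scalings and probe set rules, leaving out each array, and for sex a replicate block, no filter, trend and robust prior, array weights, no moderation and all 20 arrays.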

Additional observations from a re-analysis of the deposited data

Results flagged for a closer look

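Measures of the arrays and the genes with values in single pools were searched for a pool far from the other 4 of its sex. Chance gives such a pool in about 1 of 20 independent groups. These groups share the same arrays, and some of the genes were picked by their SD in these pools, so their count cannot be set against that rate. Of 144 groups, 22 had such a pool, and in 17 of them it was the array labelled male control replicate 2. For that array the median over all probe sets was 4.82, against 4.61 to 4.66 in the other male control arrays. The median of ribosomal protein genes was 11.26, against 11.59 to 11.64, and that of oxidative phosphorylation genes 9.71, against 10.28 to 10.32. Among single genes it was low for *RPL37A* (12.18), *RPS29* (12.05), *RPS25* (12.12), *RPLP2* (11.26), *ACTB* (11.90), *RPL11* (11.91), *RPL32* (12), *RPL18* (11.44), *UQCR10* (11.58), *H2AC21* (6.06), *NPC2* (4.79), *TFAP2C* (8.51) and the Y-linked *DDX3Y* (4.82). It was high for *SOX2* (10.32). The other male control pools had 8.82 to 9.69 for *H2AC21*, 7.54 to 7.84 for *NPC2* and 7.45 to 8.09 for *DDX3Y*.

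The other 5 groups involved other pools. Female control replicate 3 was low for *RPL13A* (11.95), the microRNA gene *MIR2424* (4.34) and *KLF5* (8.33), a factor of trophectoderm and inner cell mass. Female control replicate 1 was low for *HMGN2* (11.44). Male control replicate 3 was low for *YWHAE* (11.47). For *RPL13A*, *HMGN2* and *YWHAE* the gap to the nearest pool was under 0.2 on the log2 scale, which is a small step in genes that hardly vary.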

How the results depend on the processing

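The count of genes above background, 6234, moved past 1.5 times in 1 setting, to 10086 with the threshold taken from olfactory receptors. Other thresholds gave 7795 (90th percentile) and 4214 (highest of the list without its 2 highest), and 4586 genes were above the threshold on each of the 10 arrays. Centering the arrays leaves the means unchanged by construction. Leaving out 1 array gave 6159 to 6358. The median SD of 0.36 lay between 0.35 and 0.39 under the other settings, and between 0.32 (without male control replicate 2) and 0.37 with 1 array left out. No probe set passed the adjusted p for sex in any of 18 alternatives. With no filter 1108 of 26773 had an unadjusted p under 0.05, with array weights 609 (263 higher and 346 lower in female pools), and with 1 array left out 372 to 512. The deviations of pools with the same replicate number correlated between -0.06 and 0.04, and the replicate block gave 0 probe sets with 398 at the unadjusted level and a median SD of 0.35.

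List counts were recomputed without male control replicate 2, an alternative chosen after seeing the data. They moved by at most 2 genes, as for WNT receptors and components (16 in place of 14). The counts of small groups near the threshold depend on it most: WNT receptors and components had 25 and imprinted genes 16 above the olfactory threshold. Of the values recomputed for single lists, named genes and the unadjusted count for sex, 27 moved by over 1.5 times and 381 did not. Signal close to background limits what can be said of genes between 4.63 and 5.97.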
